A study of Mus musculus with 2 samples.

Results

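The genes described here encode the enzymes and effectors of cyclic nucleotide signalling, taken by name from the annotation: the adenylyl cyclases, the soluble and receptor guanylyl cyclases, the phosphodiesterases, the subunits of protein kinase A (PKA), the cGMP-dependent kinases, the Rapgef exchange factors and the factors Creb1, Creb3 and Creb5. Genes with at least 1 protein-coding transcript were kept, which gave 59 members among 55536 annotated genes, of which 22028 were protein coding. Total RNA from hippocampus, a brain structure needed for memory, was sequenced in 2 libraries that form 1 group. Both came from female tissue of strain B6CASTF1/J, an F1 hybrid of C57BL/6J and CAST/EiJ, aged 2 months and supplied by The Jackson Laboratory, untreated as far as the labels say, with 300 ng of RNA per library. The labels call the libraries biological replicates 1 and 2 and give them separate tissue records but 1 shared donor record. They may therefore come from 1 animal, in which case the SD of the 2 libraries holds no variation between animals. No comparison between conditions exists, and 1 library was set against 1 library without p-values.

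Cyclic AMP is made from ATP by adenylyl cyclases, which respond to G proteins and, for some members, to calcium, while cyclic GMP is made by guanylyl cyclases that respond to nitric oxide or to peptides and other ligands. Phosphodiesterases break both messengers down. Cyclic AMP releases the catalytic from the regulatory subunits of PKA and opens the Epac exchange factors, PKA phosphorylates Creb1, and in the hippocampus this route is known for its part in lasting synaptic change and memory.

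The libraries held 29490900 and 30691917 expected counts on annotated genes, of which the members took 0.547% and 0.565%. The coefficient of variation between the libraries beyond counting, estimated by edgeR over 17782 genes, was 4.86%. All 8 markers of dentate granule cells, all 6 of CA1 pyramidal neurons and all 6 of CA2 and CA3 neurons were at 1 TPM or more in both libraries, whereas none of 6 photoreceptor and none of 3 pineal markers were. All 6 thalamic markers, which summed to 56.31 and 58.84 TPM, and all 5 leptomeningeal fibroblast markers also reached that level. Detection therefore does not separate hippocampus from adjoining tissue. The summed level of 8 choroid plexus markers was 131.59 TPM in replicate 1 and 74.62 TPM in replicate 2, and that of 4 blood cell markers was 328.47 and 583.36 TPM. TPM is a level per transcript length, scaled to a fixed total in each library, so that genes can be compared. Values are from the authors' gene tables unless they are said to come from the second quantification, a further transcript table that the authors deposited and that was summed here per gene. A gene was called detected at 1 TPM or more in both libraries. In tissue RNA, fewer cells of a type and less RNA per cell cannot be told apart.

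Of the 59 members, 48 were detected (81.4%), against 12786 of all 22028 protein-coding genes (58.0%). The median member stood at 17.2 TPM, and the median protein-coding gene at 3.25 TPM. Of the levels, 6 lay at 100 TPM or more, 28 between 10 and 100, 14 between 1 and 10, and 11 below 1. The 5 highest members, Prkar1a, Prkar1b, Rapgef4, Adcy1 and Pde2a, held 42.0% of the members' summed TPM.

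**Figure D1:**
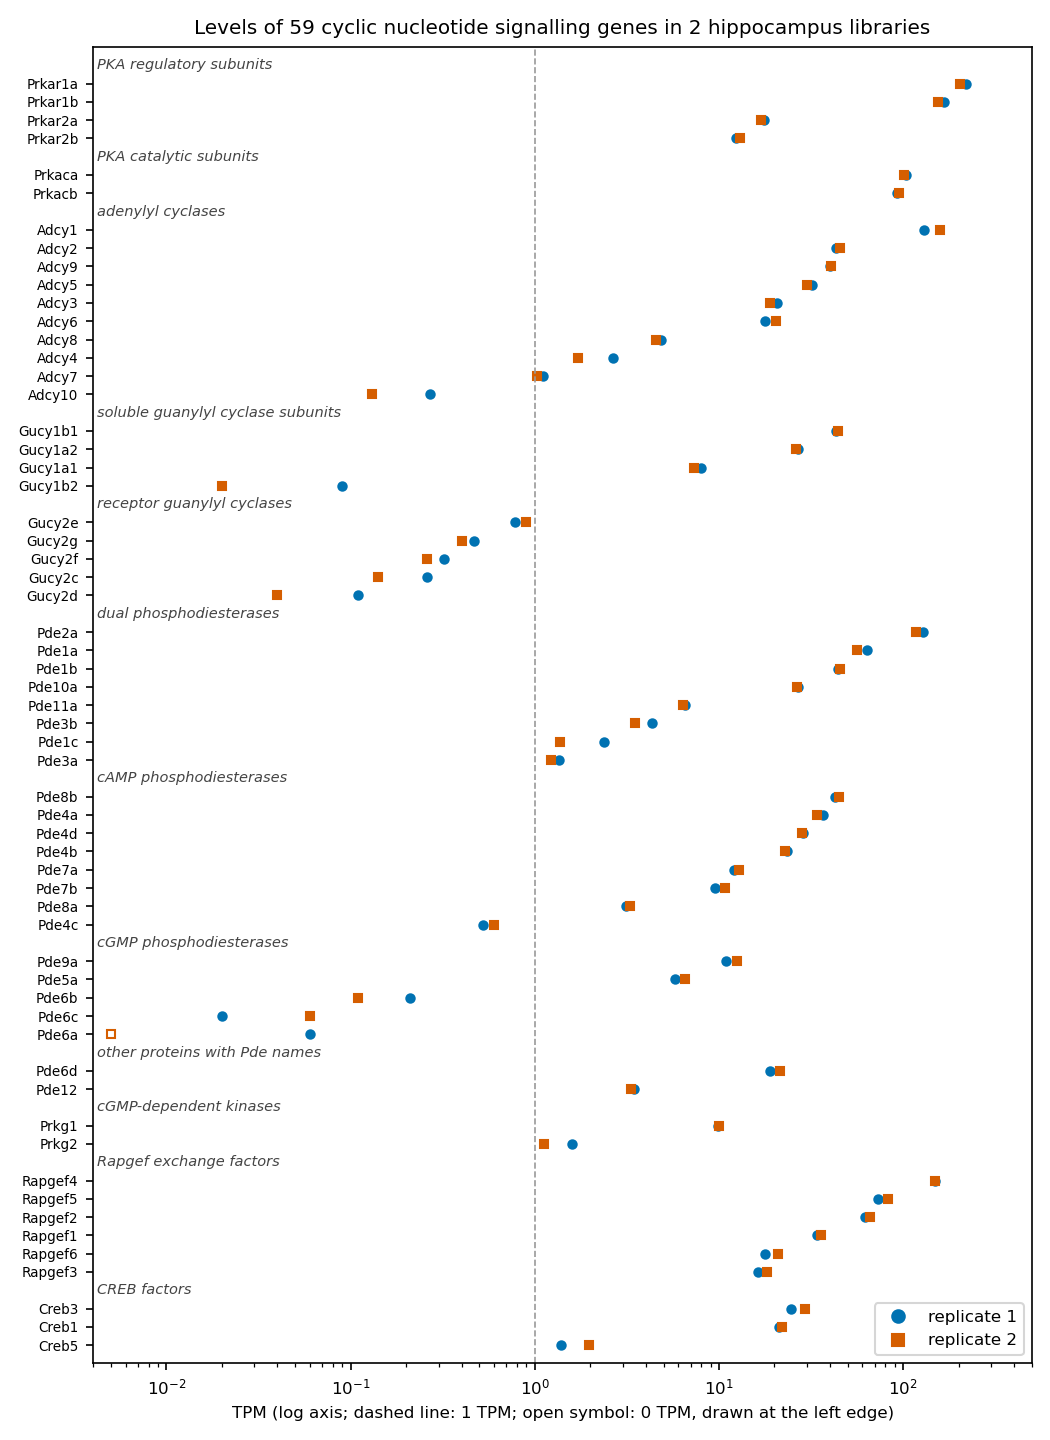
TPM of each of the 59 members (log axis) in replicate 1 (circles) and replicate 2 (squares), grouped by family and ordered by mean level within a family. Of the 59 members, 48 lie at or above the dashed line at 1 TPM in both libraries, and the 5 receptor guanylyl cyclases with Gucy2 symbols all lie below it.

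By families, the 4 PKA regulatory subunits gave the highest summed level, 401 ± 19.1 TPM (SD, n = 2), followed by the 6 Rapgef exchange factors at 362 ± 14.8 TPM and the 10 adenylyl cyclases at 306 ± 19.7 TPM. The 8 phosphodiesterases that act on both messengers reached 268 ± 13.5 TPM and the 8 that act on cyclic AMP 157 ± 0.573 TPM. Apart from the phosphodiesterases for both messengers, which also act on cyclic GMP, the families that serve cyclic GMP summed lower. The 4 soluble guanylyl cyclase subunits summed to 77.8 ± 0.134 TPM, the 5 phosphodiesterases that prefer cyclic GMP to 18.05 ± 1.53 TPM, and the 2 cGMP-dependent kinases to 11.3 ± 0.198 TPM.

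**Figure D2:**
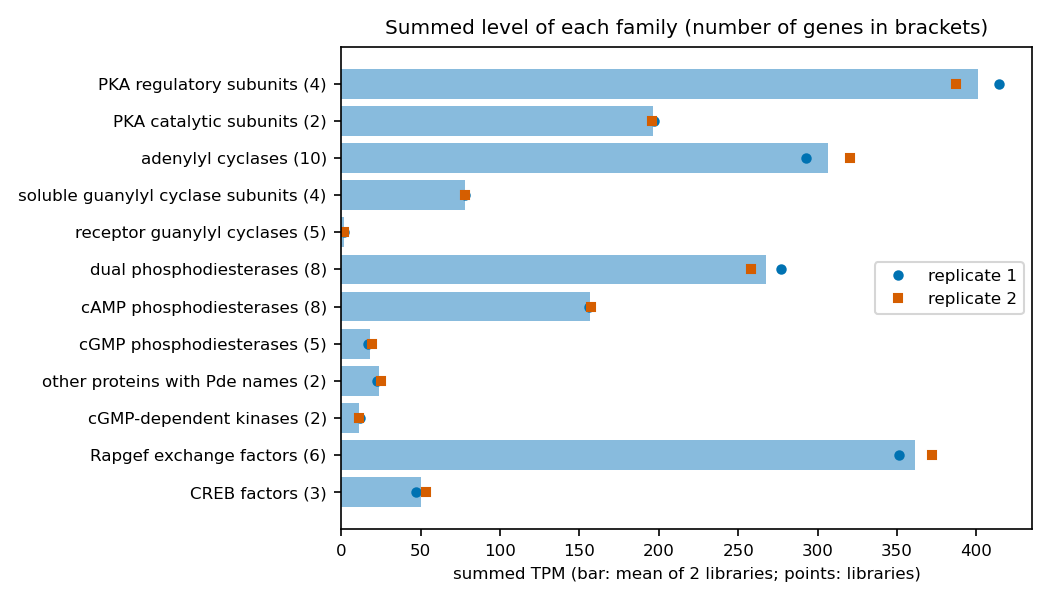
Summed TPM of each of the 12 families, with the mean of 2 libraries as a bar from 0 and each library as a point. PKA regulatory subunits, Rapgef exchange factors and adenylyl cyclases reach over 300 TPM in the mean, and the 5 receptor guanylyl cyclases with Gucy2 symbols 1.84 TPM.

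Among the adenylyl cyclases, Adcy1, which calcium and calmodulin stimulate, stood at 129.73 TPM in replicate 1 and 157.38 TPM in replicate 2. Adcy8, the other calcium-stimulated form, stood at 4.83 and 4.57 TPM. Adcy1 was therefore 30.4-fold higher within a library (log2 4.93 ± 0.25, SD, n = 2), and it held 46.7 ± 3.37% of the family's TPM. Adcy2, a form that G protein beta-gamma subunits can stimulate, was next at 43.40 and 45.46 TPM, 3.22-fold below Adcy1. Adcy9 followed at 40.16 and 40.64 TPM, then Adcy5 at 31.87 and 29.98 TPM. Adcy5 and Adcy6, the forms that calcium inhibits, differed by a log2 ratio of 0.70 ± 0.21, just past 3 SD. Adcy3, known from olfactory cilia, and Adcy6 could not be ordered, because 20.64 and 18.97 TPM overlapped 17.79 and 20.47 TPM. Adcy4 and Adcy7 lay between 1.03 and 2.65 TPM. Adcy10, the soluble cyclase that bicarbonate activates, had 5 counts in each library and was not detected.

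The soluble guanylyl cyclase, the receptor for nitric oxide, is a dimer of an alpha and a beta subunit. Its beta subunit Gucy1b1 stood at 42.96 and 44.21 TPM, the alpha subunit Gucy1a2 at 26.89 and 26.14 TPM and the alpha subunit Gucy1a1 at 7.95 and 7.33 TPM. Gucy1a2 was thus 3.47-fold above Gucy1a1 (log2 1.80 ± 0.05), and Gucy1a1 was 5.71-fold below Gucy1b1. Gucy1b2 had 5 and 1 counts. None of the 5 receptor guanylyl cyclases with Gucy2 symbols was detected in the first quantification. Gucy2e, a photoreceptor form, stood at 0.78 and 0.90 TPM from 134 and 154 counts, and at 1.29 and 1.47 TPM in the second quantification, where it passed the limit. Gucy2g, Gucy2f and Gucy2c, the last an intestinal receptor for guanylin, lay between 0.14 and 0.47 TPM. Gucy2d, known from a set of olfactory neurons, had 2 counts in each library.

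Of the phosphodiesterases for both messengers, Pde2a, which cyclic GMP stimulates, was highest at 127.80 and 117.34 TPM. Pde10a, known for high levels in striatal neurons, stood at 26.72 and 26.42 TPM, 4.61-fold below Pde2a in this quantification. The summed level of 8 striatal neuron markers was 51.37 and 54.30 TPM, of which 6 were detected, and the part of striatal tissue in the Pde10a level was not tested. Pde1a and Pde1b, which calmodulin stimulates, stood at 63.61 and 56.19 TPM and at 44.41 and 45.62 TPM, a log2 ratio of 0.41 ± 0.15 that did not pass 3 SD. Pde11a, Pde3b, Pde1c and Pde3a lay between 1.22 and 6.53 TPM.

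Among the phosphodiesterases for cyclic AMP, Pde8b led at 42.36 and 44.64 TPM, and its relative Pde8a stood 13.5-fold lower at 3.13 and 3.30 TPM. Of the 4 Pde4 genes, the targets of rolipram, 3 were within a narrow range. Pde4a stood at 36.79 and 33.82 TPM, Pde4d at 28.45 and 28.20 TPM, and Pde4b at 23.46 and 22.78 TPM. Both ratios to Pde4b passed 3 SD, with log2 values of 0.61 ± 0.06 for Pde4a and 0.29 ± 0.02 for Pde4d. The fourth, Pde4c, was not detected at 0.52 and 0.60 TPM, although it was at 1.26 and 1.43 TPM in the second quantification. Over all transcripts, Pde7a at 12.03 and 12.88 TPM was slightly above Pde7b at 9.45 and 10.78 TPM. Coding transcripts held only 37.8 ± 2.78% of the Pde7a level but 85.2 ± 0.992% of the Pde7b level, so this order does not hold for coding transcripts.

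For cyclic GMP, Pde9a, an enzyme with high affinity for the messenger, stood at 10.91 and 12.45 TPM, and Pde5a, the target of sildenafil, at 5.76 and 6.51 TPM. The catalytic subunits of the photoreceptor enzyme, Pde6a, Pde6b and Pde6c, had at most 13 counts in a library and were not detected in the first quantification. In the second quantification Pde6a was listed at 2.55 and 2.16 TPM, past the limit in both libraries, and which of the values holds was not tested. Of that level, 99.5 ± 0.763% was on the transcript Pde6a-202, whose annotated start lies downstream of that of Pde6a-201. In the first, Pde6a had 0 counts in replicate 2, where 3 counts would correspond to 0.0977 CPM (counts divided by the library's total). Pde6d, a carrier of prenylated proteins despite its name, was present at 18.94 and 21.37 TPM, and Pde12, a mitochondrial enzyme that trims poly(A) tails, at 3.47 and 3.32 TPM.

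Type I regulatory subunits had the highest levels among the PKA genes. Prkar1a stood at 218.52 and 203.84 TPM and Prkar1b, a largely neural form, at 165.87 and 153.60 TPM, whereas the type II subunits Prkar2a and Prkar2b stood at 17.56 and 16.96 TPM and at 12.43 and 12.98 TPM. The catalytic subunits were close to each other, Prkaca at 104.09 and 100.44 TPM and Prkacb at 92.62 and 95.13 TPM, and their log2 ratio of -0.12 ± 0.06 did not pass 3 SD. Regulatory exceeded catalytic transcripts 2.04-fold (log2 1.03 ± 0.06).

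The cGMP-dependent kinase Prkg1 stood at 9.86 and 10.05 TPM, and Prkg2 7.46-fold lower at 1.59 and 1.12 TPM. Of the 2 Epac genes, which encode exchange factors that bind cyclic AMP directly, Rapgef4 stood at 147.91 and 148.77 TPM and Rapgef3 at 16.19 and 18.29 TPM, an 8.62-fold difference (log2 3.11 ± 0.12). Rapgef1, an exchange factor for the GTPase Rap, stood at 34.00 and 35.68 TPM. Rapgef5 stood at 73.14 and 82.39 TPM and Rapgef2 at 62.09 and 66.10 TPM, the latter 3.33-fold above its relative Rapgef6. The target of PKA in the nucleus, Creb1, stood at 21.11 and 21.84 TPM. Creb3, a membrane-bound factor of the same family, stood at 24.45 and 29.35 TPM, and the ratio of the 2 did not pass 3 SD. Creb5 lay at 1.39 and 1.97 TPM.

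Of 18 ratios between related genes, 15 were larger than 3 SD of the 2 libraries. The exceptions were Prkacb over Prkaca, Pde1a over Pde1b and Creb1 over Creb3. In the second quantification, TPM values ran higher by a median of 1.71 times over protein-coding genes and 1.66 times over detected members. Across the 59 members the 2 quantifications ranked genes alike (Spearman rho 0.991, across genes of the same libraries). In the second, 2 of the 18 ratios changed sign. Prkacb was above Prkaca there (log2 0.16 ± 0.01). Prkar1b was level with or just above Prkar1a (log2 0.06 ± 0.02), where the first gave -0.40 ± 0.01. Both pairs passed 3 SD in the second quantification, so Prkar1b over Prkar1a passed in opposite directions in the 2 quantifications. Passing 3 SD of 2 libraries therefore does not settle the order of a pair. The log2 ratio of Pde2a to Pde10a also shrank from 2.20 ± 0.08 to 1.54 ± 0.21, with Pde10a at 70.6 and 52.01 TPM in the second quantification.

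**Figure D3:**
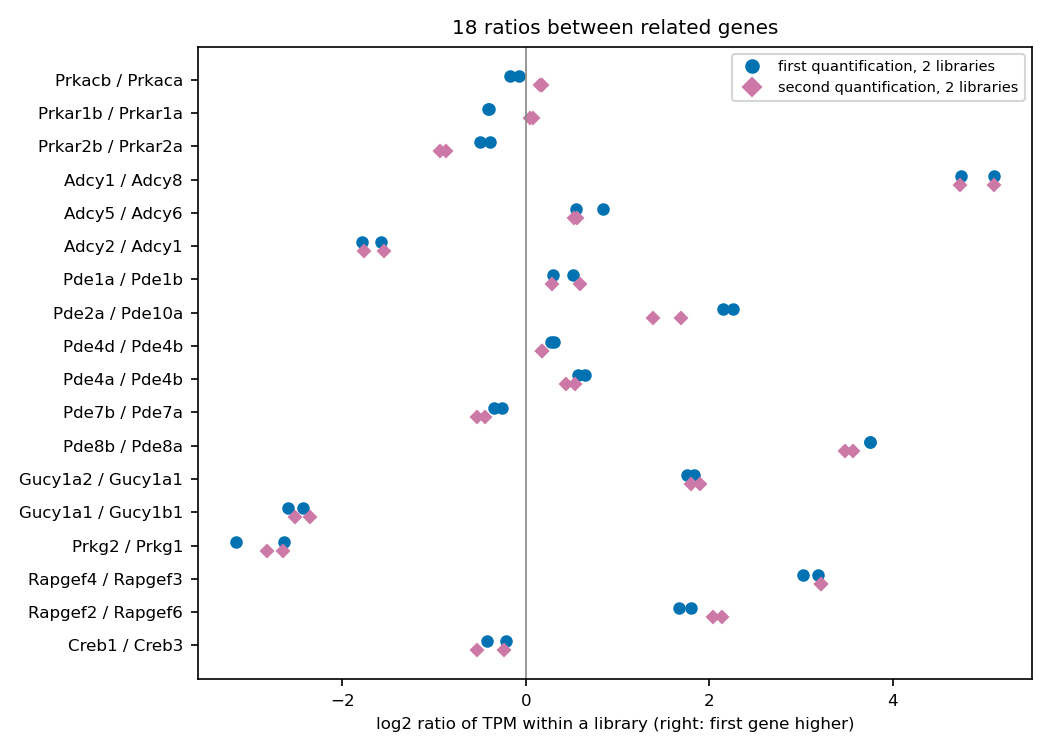
Log2 ratio of TPM between 18 pairs of related members, with the 2 libraries of the first quantification as circles and of the second as diamonds. Points right of 0 mean that the first-named gene was higher; the pairs Prkacb with Prkaca and Prkar1b with Prkar1a change side between the quantifications.

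Between the libraries, no member differed by a log2 ratio of 1 or more in size among the 52 with a mean of 1 CPM or more. Of all 15509 genes tested, 80 did (0.516%). The ratios were of counts with 0.5 added, scaled by library size, replicate 2 over replicate 1. The median member ratio was 0.0038 on the log2 scale, 26 members were higher in each library, and the median size of a ratio was 0.10 for members and 0.08 for all genes tested. The largest was that of Pde1c, at 218 and 164 counts (log2 -0.47).

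A finer measure was the interval that the authors deposited for each TPM, which covers counting and assignment of reads but not variation between samples. For 9 members the TPM itself lay outside its own interval in a library, so the interval is not centred on it. In 7 of the 52 members (13.5%) the intervals of the 2 libraries did not overlap, against 679 of the 15509 genes (4.38%). Separate intervals came more often with more counts. Among genes with 1000 counts or more they were seen in 443 of 5378 (8.24%), and the 7 members were all among the 27 members at that depth (25.9%). Adcy1 and Rapgef5 were the members higher in replicate 2. Prkar1a, Prkar1b, Pde2a, Pde1a and Pde4a were higher in replicate 1. For Adcy1, Rapgef5 and Prkar1a, the TPM lay above its own interval in both libraries. Adcy1 differed most among the 7, from 34202 counts to 43144 counts (log2 0.28, larger in size than 87.3% of all ratios tested). For Pde4a the gap was narrow, from a lower bound of 34.3 TPM in replicate 1 to an upper bound of 34.28 TPM in replicate 2.

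Markers of dentate granule cells were, like Adcy1 and Rapgef5, higher in replicate 2. Of the 8, 7 were higher in replicate 2, 5 of them with separate intervals, their median log2 ratio was 0.33, and their summed level went from 212.76 to 251.18 TPM. Markers of astrocytes and oligodendrocytes moved the same way by less. Of 6 astrocyte markers, 5 were higher in replicate 2, 4 with separate intervals, and the 6 summed to 1822.74 and 1927.25 TPM (median log2 ratio 0.08). All 6 oligodendrocyte markers were higher, 2 with separate intervals, and summed to 930.39 and 1021.96 TPM (0.10). Microglia markers did not move that way: 1 of 5 was higher in replicate 2, and they summed to 88.12 and 83.67 TPM (-0.07). The 6 CA1 markers summed to 213.34 and 203.25 TPM, with a median log2 ratio of -0.03. Of them, 2 had separate intervals, 1 higher in replicate 2. The 6 CA2 and CA3 markers summed to 212.55 and 225.27 TPM (-0.06). Of these, 3 were higher in replicate 2, and 3 had separate intervals, 2 of them higher in replicate 2. The 8 pan-neuronal markers summed to 2938.7 and 2854.11 TPM (-0.06), with 2 higher in replicate 2. The part of any of these cell types in the differences of Adcy1, Rapgef5 and the 5 members higher in replicate 1 was not tested.

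**Figure D4:**
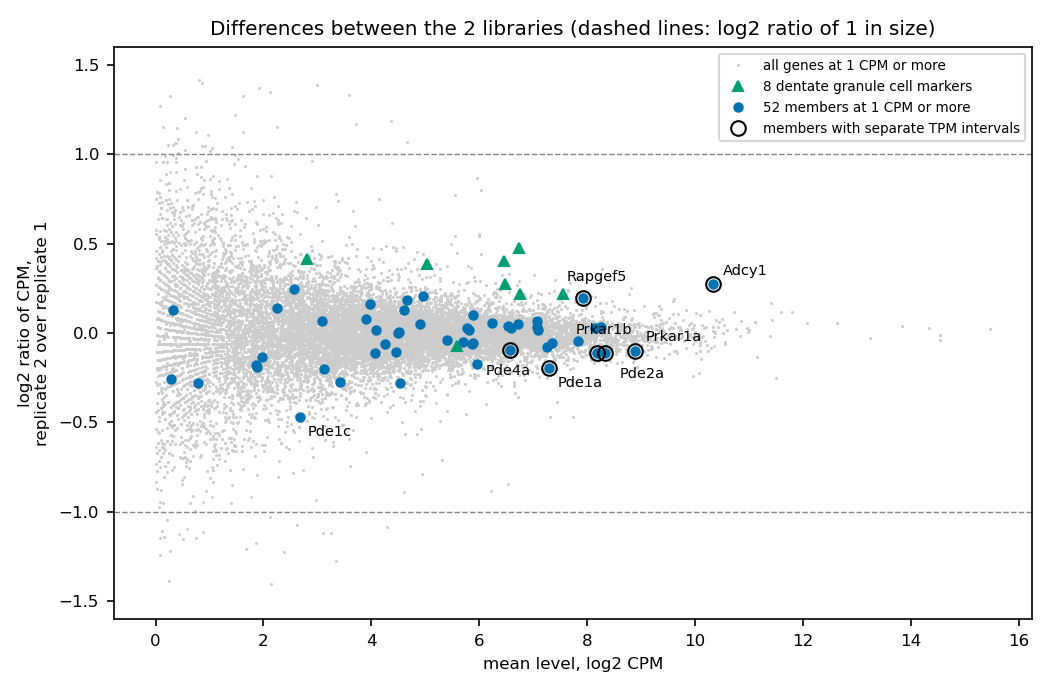
Log2 ratio of CPM between replicate 2 and replicate 1 against mean level for 15509 genes (grey), the 52 members tested (blue), members with separate TPM intervals (ringed) and 8 dentate granule cell markers (green triangles). The axis ends at 1.6 in size and leaves out 26 genes, none of them a member or marker; every member lies between the dashed lines.

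Of the 48 detected members, 8 gave ratios between the libraries that differed by more than 0.2 on the log2 scale between counts and TPM, and for Pde3b, Adcy6 and Pde9a the signs were opposite. Pde9a had 345 and 297 counts in replicates 1 and 2, and 10.91 and 12.45 TPM. In the same gene, which has 28 annotated transcripts, the coding transcript Pde9a-201 held 34.5% of TPM in replicate 1 and 0.562% in replicate 2.

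Partners of the pathway were read from lists of upstream and downstream genes. Of 48 partners, 35 were detected, none of the 36 tested was apart between the libraries, and 3 (8.33%) had separate intervals, against 4.38% of all genes tested. At 1000 counts or more it was 3 of 20 partners, against 8.24% of genes. The 3 were the G protein alpha subunits Gnas, which stimulates adenylyl cyclases, at 700.49 and 654.01 TPM, Gnal, its olfactory and striatal relative, at 42.84 and 50.39 TPM, and the inhibitory Gnai1 at 67.09 and 56.65 TPM. All 7 G proteins were detected, with Gnao1 at 263 ± 5.395 TPM and Gnai2 at 85.5 ± 1.53 TPM next after Gnas. Of 14 A-kinase anchoring proteins, which hold PKA at its places in the cell, 11 were detected, led by Akap11 at 74.8 ± 1.45 TPM, Akap6 at 51.0 ± 0.389 TPM and Akap8 at 40.9 ± 3.94 TPM. The inhibitor of PKA Pkia stood at 67.76 and 74.69 TPM. The CREB coactivator Crtc1 led the 7 CREB partners at 73.0 ± 2.38 TPM, followed by the acetyltransferases Crebbp at 34.6 ± 1.38 TPM and Ep300 at 28.6 ± 2.95 TPM, and Crem, a relative of Creb1, stood at 10.67 and 10.73 TPM. The neuronal nitric oxide synthase Nos1 stood at 27.9 ± 0.0283 TPM and the natriuretic peptide receptor Npr2 at 22.7 ± 0.311 TPM. Npr2 and Npr1, the latter at 2.90 ± 0.0283 TPM, are themselves receptor guanylyl cyclases, which the choice by symbol leaves out of that family. Of the 9 other effectors of cyclic nucleotides, 2 were detected, and none of the 6 cyclic nucleotide-gated channel subunits among them was.

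Members differed in how many of their transcripts carried the signal. Of 48 detected members, 46 have at least 2 annotated transcripts. The leading transcript held a median of 59.9% of the gene's TPM, over 80% in 10 members and under 40% in 13, and it was annotated as protein coding in 44 of the 46. In Pde7a it was a retained intron form of 798 bases and in Pde5a a processed transcript of 418 bases. By expected counts, which are not divided by length, the coding transcripts Pde7a-202 and Pde5a-201 led in both libraries. The leading transcript held 99.7 ± 0.145% of Adcy1 and 99.3 ± 0.371% of Prkaca, whereas no transcript of Pde8b held more than 20.8% in the mean. Retained intron transcripts held over 20% of TPM in 12 of the 46 members (26.1%), a share near the 22.7% among 11578 detected protein-coding genes. Pde7a with 57.8 ± 2.43%, Rapgef3 with 43.6 ± 1.82% and Creb3 with 38.3 ± 10.2% had the most of the detected members.

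The leading transcript was the same in both libraries for 41 of the 46 members. The exceptions were Pde2a, Pde8b, Adcy3, Pde7a and Pde9a. In Pde2a, the coding transcript Pde2a-204 held 37.8% and 32.2%, and Pde2a-209, annotated for nonsense-mediated decay, 27.1% and 36.3%. In the second quantification Pde2a-209 held 0.918 ± 0.713%, and Pde2a-204 led both libraries. Over a stretch of 64.3% of its exon bases, Pde2a also shares its strand with the gene Gm45837, which was listed at 0.470 TPM in the mean.

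The 2 quantifications named the same leading transcript for 39 of the 46 members and other ones for Prkar1a, Prkar1b, Adcy9, Creb1, Gucy1a1, Pde7a and Pde9a. In Prkar1a, the highest member, Prkar1a-201 held 71.997 ± 0.130% of TPM in the first and 14.0 ± 6.09% in the second quantification, while Prkar1a-203 held 18.6 ± 0.243% and 79.96 ± 6.36%. Prkar1b-201 held 95.4 ± 0.151% and 23.4 ± 11.7%. In Creb1, Creb1-209 held 38.8 ± 2.50% in the first and 0.0111 ± 0.0157% in the second. For these 7 genes the files do not settle which transcript leads, while at the level of genes the ratio of the second to the first quantification was within 1.5 times of its median for all 48 detected members.

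**Figure D5:**
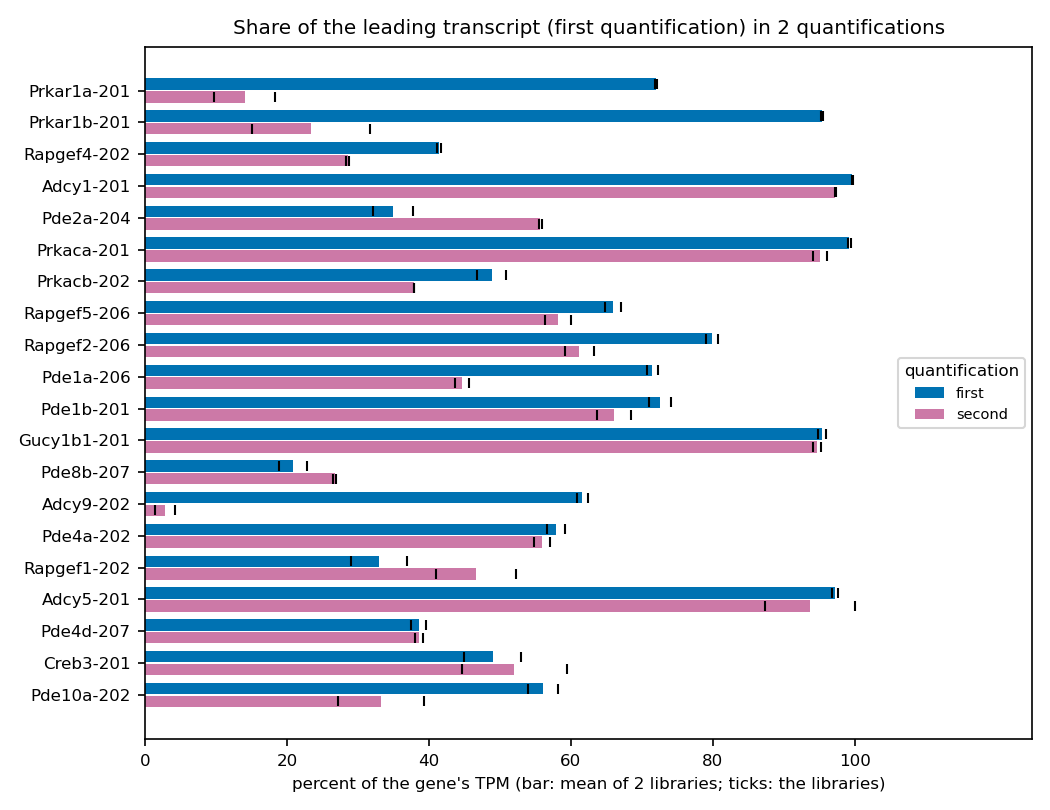
Share of the gene's TPM held by the transcript that leads in the first quantification, for the 20 highest detected members with at least 2 transcripts, in the first (blue) and second (pink) quantification; bars are means of 2 libraries and ticks the libraries. The bars differ most for Prkar1a-201, Prkar1b-201 and the leading transcript of Adcy9. They stay within 5 percentage points for Pde4a-202 and the leading transcripts of Adcy1, Prkaca, Gucy1b1, Adcy5, Pde4d and Creb3.

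Start sites were compared by grouping coding transcripts whose annotated starts lie within 300 bases of the next. Of 48 detected members, 35 have at least 2 such start regions, and 30 of these had the same leading region in both quantifications. The other 5 were Gucy1a1, Pde7a, Pde9a, Prkar1a and Prkar1b. The 3 genes whose starts are shown next cover both outcomes. Sequences are the 250 bases upstream of RefSeq starts (GRCm38.p6), written 5′ to 3′ on the gene's strand. RefSeq starts can differ from the annotated starts of the transcripts named. The windows of Prkar1a-201, Prkacb-202 and Prkacb-203 therefore run past those starts into the transcript, and that of Prkar1a-203 ends before its start. Capitals mark TGACGTCA, the full cyclic AMP response element that Creb1 is known to bind, and its shorter core, TGACG, on either strand (CGTCA when on the other).

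Prkar1a, on chromosome 11, plus strand, is shown because its start depended on the quantification: transcripts starting at 109650921 held 73.7 ± 0.143% of coding TPM in the first and 14.1 ± 6.06% in the second, and those at 109649405 held 19.1 ± 0.320% and 80.6 ± 6.87%. Only the first of these windows held a full element.
Prkar1a-201 start, chr11:109650699-109650948: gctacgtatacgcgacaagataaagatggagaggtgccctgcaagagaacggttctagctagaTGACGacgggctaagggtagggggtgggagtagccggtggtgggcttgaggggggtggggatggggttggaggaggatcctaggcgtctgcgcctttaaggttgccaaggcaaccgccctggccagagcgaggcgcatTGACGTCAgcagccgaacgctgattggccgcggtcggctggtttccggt
Prkar1a-203 start, chr11:109649113-109649362: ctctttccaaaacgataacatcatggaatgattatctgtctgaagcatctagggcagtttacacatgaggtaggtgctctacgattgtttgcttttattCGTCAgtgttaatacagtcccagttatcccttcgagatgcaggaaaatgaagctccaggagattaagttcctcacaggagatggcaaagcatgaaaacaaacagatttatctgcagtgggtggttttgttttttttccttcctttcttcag

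Pde4a, on chromosome 9, plus strand, is shown because both quantifications divided it alike between a pair of starts that lie far apart: Pde4a-202 at 21165714 held 59.3 ± 2.25% and 57.3 ± 2.22% of coding TPM, and Pde4a-201 at 21196705 held 38.4 ± 2.24% and 41.1 ± 2.15%. Neither window held the motif.
Pde4a-202 start, chr9:21165464-21165713: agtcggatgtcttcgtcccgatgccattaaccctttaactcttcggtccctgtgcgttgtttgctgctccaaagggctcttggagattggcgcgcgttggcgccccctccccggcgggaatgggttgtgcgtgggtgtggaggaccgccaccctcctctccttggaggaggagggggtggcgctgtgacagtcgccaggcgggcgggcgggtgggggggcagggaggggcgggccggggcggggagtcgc
Pde4a-201 start, chr9:21196455-21196704: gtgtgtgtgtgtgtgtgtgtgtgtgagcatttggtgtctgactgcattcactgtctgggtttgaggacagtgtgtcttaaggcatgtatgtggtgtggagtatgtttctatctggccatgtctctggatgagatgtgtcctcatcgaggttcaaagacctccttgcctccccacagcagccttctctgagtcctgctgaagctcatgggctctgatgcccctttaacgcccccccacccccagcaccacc

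Prkacb, on chromosome 3, minus strand, is shown for a leading start that both quantifications shared: Prkacb-202 at 146812960 held 50.2 ± 2.32% and 50.4 ± 1.19% of coding TPM. Prkacb-203 at 146770261 held 19.1 ± 0.645% and 21.8 ± 2.04%. Prkacb-204 at 146770781 held 9.43 ± 1.16% and 5.07 ± 3.33%. The quantifications differed at 146764570 (20.9 ± 3.17% in the first, 0.228 ± 0.323% in the second) and at 146788836 (0.335 ± 0.474% and 22.5 ± 0.228%).
Prkacb-202 start, chr3:146812947-146813196: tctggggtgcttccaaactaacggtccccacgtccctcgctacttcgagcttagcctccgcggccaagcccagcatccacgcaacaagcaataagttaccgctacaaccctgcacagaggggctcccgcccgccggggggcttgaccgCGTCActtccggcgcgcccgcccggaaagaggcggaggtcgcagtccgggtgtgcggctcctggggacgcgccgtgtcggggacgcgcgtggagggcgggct
Prkacb-203 start, chr3:146770239-146770488: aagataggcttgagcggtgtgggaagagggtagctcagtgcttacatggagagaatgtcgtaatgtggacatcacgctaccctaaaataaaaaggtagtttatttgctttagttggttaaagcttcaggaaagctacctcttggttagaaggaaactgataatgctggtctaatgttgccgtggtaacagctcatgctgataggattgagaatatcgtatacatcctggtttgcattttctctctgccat

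In each of the 3 genes the windows differed in base composition. Those of Prkar1a-201, Pde4a-202 and Prkacb-202 had 61.6%, 68.8% and 69.2% G or C and 19, 22 and 30 CpG pairs, and those of Prkar1a-203, Pde4a-201 and Prkacb-203 had 40.4%, 53.6% and 42.0% and 4, 2 and 5 CpG pairs. Over all members, 49 matched RefSeq, with 92 windows. The full element was in 2 of the 92 (2.17%), 1 each at Prkar1a and Creb5, against 1.55% of all 32851 windows. The core, full ones included, was in 18 windows (19.6%) against 17.8%. Both shares were near those of all windows.

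Exons of 17 members share bases with another annotated gene, in 5 on the same strand and in 13 on the opposite one. The largest overlaps on the opposite strand were Adcy3 with Cenpo, over 22.1% of exon bases, and Creb3 with Tln1, over 15.2%. No source used here gives how the authors' counting used strand, so reads of these pairs may be mixed.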

How the data were processed

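Total RNA-seq of 2 hippocampus libraries was used. Per the labels, the libraries were stranded, ribosomal RNA was reduced and ERCC spike-ins were included. The assembly is mm10 and the annotation M21, per the notes deposited with the files (software: not given in the sources used here). Per the file headers, the authors deposited for each library an expected count and a TPM per gene and transcript, in the layout of RSEM. They also deposited a score, the bounds of a TPM interval, read here as a 95% credibility interval. A further deposited table holds an estimated count and a TPM per transcript, in the layout of kallisto, and was summed per gene as the second quantification.

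Members were chosen by symbol. The members and the gene lists were chosen with earlier results of these data known. The lists hold partners of the pathway and markers of hippocampal fields, other brain regions, glia, vessels, choroid plexus, retina, pineal gland and blood. All members are named. Of the lists, the text names the 3 highest of the G proteins, anchoring proteins and CREB partners, any gene apart, and Gnas, Pkia and Crem. Gnal, Gnai1, Nos1, Npr1 and Npr2 were chosen after their values were seen.

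Entries that name no annotated gene (0.378% and 0.368% of counts) stayed out. Expected counts were rounded for edgeR 4.0.16 (limma 3.58.1, R 4.3.3), which gave TMM library sizes and, from the common dispersion over genes past a minimum of 10 counts, the spread. Ratios used a pseudocount of 0.5 and genes at a mean of 1 CPM or more, and a gene was apart at a log2 ratio of 1 or more in size. On simulated libraries of 15509 genes, this called 98.5% of 200 genes shifted by 1.5 and 18 of 15309 unshifted genes. The simulation used a coefficient of variation of 0.1 beyond counting, larger than the 4.86% estimated here. Its shift lay above the limit of 1, so smaller shifts were not tried. With 1 library against 1, no p-values were computed. Levels are means ± SD of 2 libraries, and a ratio of a pair was called past 3 SD. Intervals and the limit of 3 counts for a count of 0 cover counting error only. Promoter windows were checked for orientation against 4 transcripts. Alternatives were other size factors (DESeq2 1.42.0), filters, pseudocounts, the second quantification and 1 library at a time. Python 3.11.15 with numpy 2.4.6, pandas 2.3.3 and matplotlib 3.10.9 was used.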

Additional observations from a re-analysis of the deposited data

How the results depend on the processing

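The number of members detected was 48 as reported, 50 at 0.5 TPM, 42 at 2 TPM, 51 in the second quantification (with Gucy2e, Pde4c and Pde6a added) and 48 in either library alone. Without a filter on low counts, 4 members, Gucy1b2, Pde6a, Pde6b and Pde6c, passed a log2 ratio of 1, each with at most 13 counts, beside 20.2% of 27930 genes. Under the other size factors, a pseudocount of 5 or the second quantification, 0 members did. The median member ratio ranged from -0.04 to 0.01 on the log2 scale and so changed sign. Its size stayed below 0.10, which is the spread of a single gene's ratio and not that of a median over members. Separate intervals were seen in 7 members with and without the filter, and, in an alternative chosen after seeing the data, in 7 at 1000 counts or more. The same transcript led in both libraries for 43 members by counts, 39 in the second quantification and, in another alternative chosen after seeing the data, 37 of 40 among coding transcripts only. The log2 ratio of PKA regulatory to catalytic transcripts was 0.97 in the second quantification and 0.99 to 1.07 with 1 library left out. Of the 18 pairs, 16 passed 3 SD in the second quantification and 15 with a pseudocount of 1. In the second quantification 2 reversed: Prkacb over Prkaca (log2 0.16) and Prkar1b over Prkar1a (log2 0.061); the cause was not tested. Leaving out 1 library could not be applied to ratios between the libraries. No paired analysis was possible because the series has 1 group. Depth limits the 7 members under 1 CPM, and a group of 2 libraries limits every SD.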
